A study of Mus musculus with 11 samples.

Results

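A set of 10 genes of anion transport and fluid secretion was examined in obesity-related alcohol-induced acute pancreatitis (OA-AP), as RNA sequencing counts from the pancreas and the epididymal adipose tissue of mice. The genes were Cftr, Slc26a3, Slc26a6, Slc26a9, Slc4a4, Kcnj15, Kcnj16, Aqp8, Aqp12 and Car2, or 10 of the 54532 genes listed for the pancreas and of the 46078 listed for adipose tissue. The genes were picked by name, and they were chosen by measured values of these same libraries, so the differences between groups below describe the chosen genes and carry no test. The adipose table held a second entry named Slc26a6 with no counts, which was left aside. All mice were wild type animals aged 16 weeks, given as C57BL/6 in the labels and as male C57BL/6J in the study's methods. The control groups received chow and saline, and the OA-AP groups a high-fat diet for 12 weeks followed by 2 intraperitoneal injections of ethanol at 2 g/kg, 1 h apart, with tissue taken 12 h after the first injection. Diet and ethanol therefore differed together between the groups and cannot be told apart. There were 2 control and 3 OA-AP pancreas libraries, and 3 control and 3 OA-AP adipose libraries.

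Pancreatic juice is made in steps by acinar and duct cells. Acinar cells secrete digestive enzymes with a chloride-rich fluid, and duct cells add bicarbonate through the apical chloride and bicarbonate channel CFTR and exchangers of the SLC26 family. Basolateral sodium bicarbonate cotransport and carbonic anhydrase supply the bicarbonate, potassium channels hold the membrane potential that drives anion exit, and aquaporins let water follow. In adipose tissue the same protein families serve other cell functions, and no such fluid is secreted there.

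The libraries held 14188832 to 17238919 counts in the pancreas and 20825177 to 27928097 in adipose tissue, and 3 counts equalled 0.157 to 0.299 and 0.102 to 0.156 CPM, respectively, where CPM are counts per 1000000 counts of the TMM-scaled library. The pancreas expressed its acinar markers, with 10 of the 15 lower in the OA-AP group by edgeR's quasi-likelihood test with Benjamini-Hochberg adjustment (an adjusted p under 0.05 with a change of 1.5-fold or more, called the DEG thresholds below). The sum of all 15 was 625763 and 732430 CPM in the control libraries and 286829 to 363122 CPM in the OA-AP libraries. As a share of unscaled counts they made up 49.6% and 51.1% in control and 37.8%, 39.3% and 40.3% in OA-AP. The gap was thus narrower without scaling, as the TMM factors were 0.79 and 0.7 in control and 1.32, 1.23 and 1.11 in OA-AP. Of the 12 duct markers, 11 were tested, with 3 higher (Krt8, Krt18 and Epcam) and 2 lower. The adipose libraries expressed adipocyte markers at a summed 35047 to 44130 CPM. The adipose library control 2 stood apart, with acinar markers at a summed 5829 CPM against 12.5 to 23.7 CPM in the other 5 adipose libraries. Markers of the epididymis, which lies beside this fat pad, reached a summed 0.257 CPM at most in any library of either tissue.

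The promoters of the 4 genes past these thresholds in the pancreas are shown, since 2 of them were higher and 2 lower in the OA-AP libraries. RefSeq (GRCm38.p6) gave promoter sequence for 9 of the 10 genes, as 250 bases before to 50 bases after a transcript start. A set of 7 motifs was searched on both strands, and each match is in capitals.
Slc26a9 (chr1:131743772-131744071, strand +): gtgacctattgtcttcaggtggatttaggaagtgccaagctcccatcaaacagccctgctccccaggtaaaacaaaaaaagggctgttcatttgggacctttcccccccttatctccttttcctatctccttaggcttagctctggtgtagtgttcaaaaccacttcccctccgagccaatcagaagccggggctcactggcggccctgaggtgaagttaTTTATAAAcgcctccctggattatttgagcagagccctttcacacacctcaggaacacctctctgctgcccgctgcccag
Kcnj15 (chr16:95257308-95257607, strand +): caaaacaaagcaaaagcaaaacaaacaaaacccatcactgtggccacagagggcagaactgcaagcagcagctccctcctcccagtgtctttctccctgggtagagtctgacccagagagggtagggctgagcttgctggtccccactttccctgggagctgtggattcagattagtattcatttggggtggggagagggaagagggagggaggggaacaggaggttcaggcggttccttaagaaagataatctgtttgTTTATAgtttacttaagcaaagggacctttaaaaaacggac
Aqp8 (chr7:123462044-123462343, strand +): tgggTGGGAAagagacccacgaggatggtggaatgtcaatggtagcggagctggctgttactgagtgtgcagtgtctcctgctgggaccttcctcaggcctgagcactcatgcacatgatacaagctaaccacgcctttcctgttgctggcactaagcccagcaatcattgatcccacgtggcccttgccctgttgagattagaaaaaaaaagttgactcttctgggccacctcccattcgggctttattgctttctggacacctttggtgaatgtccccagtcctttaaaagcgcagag
Aqp12 (chr1:93006084-93006383, strand +): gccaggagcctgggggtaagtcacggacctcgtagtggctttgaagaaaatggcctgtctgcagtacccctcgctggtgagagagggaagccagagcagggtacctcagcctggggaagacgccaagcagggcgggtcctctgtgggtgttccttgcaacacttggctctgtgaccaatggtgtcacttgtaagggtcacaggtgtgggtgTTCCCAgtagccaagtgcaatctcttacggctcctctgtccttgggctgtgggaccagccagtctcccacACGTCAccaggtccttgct
The motifs were CAGCTG and TTCCCA, both parts of sites bound by the acinar factor PTF1, TGANTCA of AP-1, TTCNNNGAA of STAT factors, TGATGNAA of ATF4, the TATA box TATAAA, and TGACGT of the cyclic AMP response element. Slc26a9 held TATAAA as overlapping matches on the opposite strands, beginning at positions -30 and -28 from the start site. Kcnj15 held TATAAA on the strand opposite the printed one (TTTATA as printed), at position 10, downstream of the start site. Aqp8 and Aqp12 each held TTCCCA, at positions -246 and -39, and Aqp12 also held TGACGT at position 32. The match in Aqp8 (TGGGAA as printed) and that of TGACGT in Aqp12 (ACGTCA as printed) were on the opposite strand too. Among all 32851 promoters of this length, 25.6% held TTCCCA, 13.6% held TATAAA and 7.51% held TGACGT. The motif CAGCTG was present in 16.3%, TGANTCA in 7.81%, TTCNNNGAA in 8.3% and TGATGNAA in 3.97% of them. None of these last motifs, CAGCTG included, was in the 4 printed windows. A match here is a match of letters and not a measured binding site.

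In the pancreas, Slc26a9 and Kcnj15 were near absent in control libraries and present in all OA-AP libraries, whereas Aqp8 and Aqp12 were lower in all OA-AP libraries than in both controls. In all, 7 of the 10 genes had enough counts to be tested in the fit across all genes. Of these, 2 were past the DEG thresholds as higher (16.2% of all 12884 tested genes were) and 2 as lower (13.5% were), counts that the choice of the genes by this contrast fixes in part and from which nothing is read. Slc26a9 and Kcnj15 passed the filter on low counts through the OA-AP libraries alone. Cftr, Slc26a3 and Kcnj16 did not pass the filter on low counts. As these are whole tissues, fewer cells of a type and less RNA per cell cannot be told apart.

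Cftr encodes the apical anion channel of duct cells. It had 0.515 and 0.598 CPM in the control pancreas libraries and 0.105, 0.686 and 0.418 CPM in the OA-AP libraries, from 2 to 12 counts each. The groups overlapped, and a difference was not detectable at this depth. Krt19, a duct cytokeratin, was measured in the same libraries at 14.7 and 9.07 CPM in control and 20.3, 14.5 and 25.4 CPM in OA-AP. The antisense gene Gm15592, which shares 129 exon bases with Cftr, had 4 counts at most in any pancreas library, and without strand its reads and those of Cftr cannot be told apart there.

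Slc26a9, on chromosome 1 at 131744022 to 131771504 of GRCm38 on the plus strand, encodes a chloride channel and transporter known from airway and gastric epithelium. It had 0 and 1 counts in the control pancreas libraries, 0 and 0.0997 CPM. The OA-AP libraries had 378, 290 and 413 counts, or 19.8, 16.6 and 21.6 CPM, a mean of 19.3 ± 2.54 CPM (SD, n = 3). The groups did not overlap, and against 3 counts in each control library the level was at least 69.5-fold higher in OA-AP. The fitted log2 fold change was 8.48 with a standard error (SE) of 0.46, and it was 7.50 without control 1 and 11.35 without control 2, because it rests on 1 control count. Of the 8 gastric markers, Gkn1 and Gkn2 were at 0 in all 5 libraries, Gkn3 and Muc5ac reached 0.0525 CPM, Tff1 0.172 CPM and Atp4a 0.680 CPM at most. Cblif (gastric intrinsic factor, Gif in the files) had 0.0858 and 0 CPM in control and 0.105, 1.77 and 0 CPM in OA-AP, and Tff2 was 1615 and 1932 CPM in control and 442, 436 and 365 CPM in OA-AP. The 8 intestinal markers summed to 11.7 and 7.98 CPM in control and 32.8, 36.0 and 23.6 CPM in OA-AP. Of the 3 of them tested, Krt20 (log2 fold change 1.96, adjusted p = 0.0197 from edgeR) and Lgals4 (1.42, adjusted p = 0.00126) rose. Vil1, also tested, did not pass (2.04, adjusted p = 0.0737). Muc2 was not tested and was lower in OA-AP, at a mean of 0.507 CPM in control and 0.179 CPM in OA-AP. Fabp2, Cdx1 and Alpi were at 0 in every pancreas library and Cdx2 reached 0.0523 CPM. The part of such cells in the Slc26a9 level was not tested.

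The other exchangers were low or varied. Slc26a6, an apical chloride and bicarbonate exchanger of duct cells, had 11.6 and 8.38 CPM in control and 4.36, 8.12 and 3.40 CPM in OA-AP. Both controls lay above all 3 OA-AP libraries, but control 2 and OA-AP 2 were nearly level, and the log2 fold change of -0.92 (SE 0.37) did not pass the thresholds. It passed them with no filter on low counts, at -0.85, and without OA-AP library 2, at -1.37, and it was -0.21 with library totals alone. Slc26a3, a chloride and bicarbonate exchanger that absorbs chloride in the colon, had 3 counts in control 1 and 0 in the other 4 libraries. Slc4a4 encodes the basolateral sodium bicarbonate cotransporter NBCe1, and it had 1.29 and 0.399 CPM in control and 0.578, 1.20 and 1.20 CPM in OA-AP, with overlapping groups.

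Kcnj15, on chromosome 16 at 95257558 to 95300260 on the plus strand, encodes the inwardly rectifying potassium channel Kir4.2. It had 0 and 1 counts in the control pancreas libraries and 331, 369 and 253 counts in OA-AP. These were 17.4, 21.1 and 13.2 CPM in OA-AP, a mean of 17.2 ± 3.94 CPM (SD, n = 3). The groups did not overlap, and the level was at least 62.0-fold higher in OA-AP against 3 counts in each control library. The fitted log2 fold change of 8.31 (SE 0.56) was 7.33 without control 1 and 11.18 without control 2. The overlapping antisense gene Gm49643, which shares 333 exon bases with Kcnj15, had 7 counts at most in any pancreas library. Kcnj16, which encodes Kir5.1, a partner subunit of Kir4 channels, had no count in any of the 5 libraries, which allows up to 0.157 to 0.299 CPM per library.

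**Figure D1:**
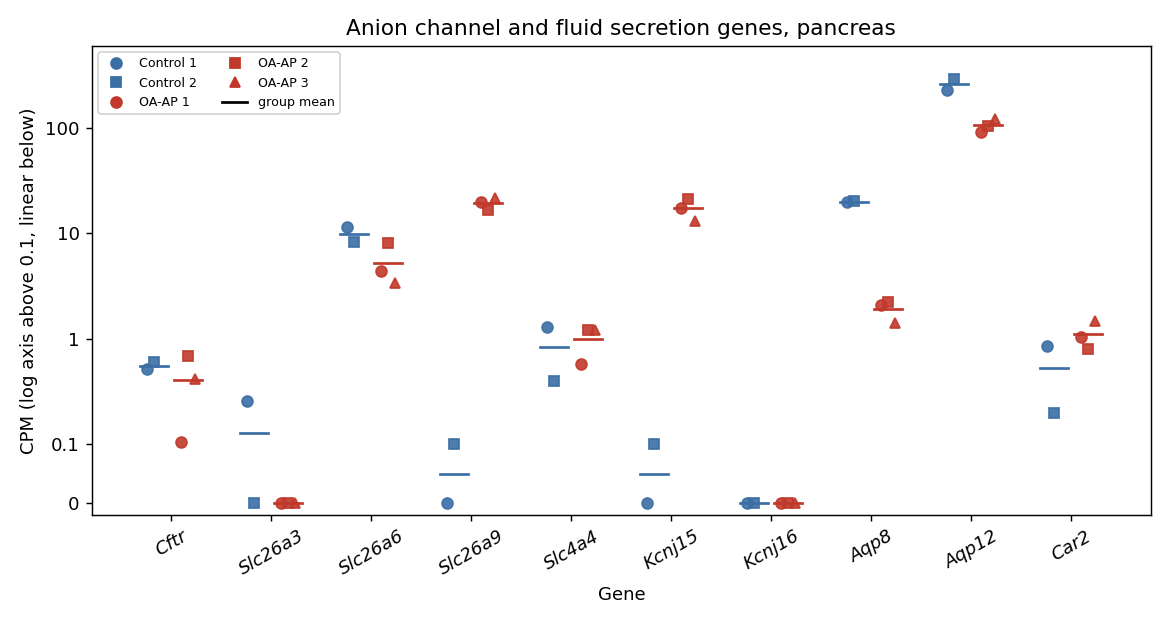
CPM of the 10 genes in each pancreas library (control blue, OA-AP red; symbols mark the replicate, short lines the group mean; log axis above 0.1 CPM). Slc26a9 and Kcnj15 sit between 13.2 and 21.6 CPM in OA-AP and at 0.0997 CPM or less in control, while Aqp8 and Aqp12 lie lower in every OA-AP library.

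Because Kcnj15 was abundant in the fat, markers of other cell types in the pancreas libraries are given beside it. The adipocyte markers Adipoq, Plin1, Lep, Cidec and Cfd were each at 0.229 CPM or less in every pancreas library. The sum of all 8 adipocyte markers was 47.0 and 61.8 CPM in the control and 135 to 271 CPM in the OA-AP pancreas, mostly from Pnpla2 and Fabp4, and 2 of the 3 tested were higher. For every 1000 CPM of that sum, Kcnj15 in OA-AP stood at 107, 156 and 48.8 CPM, against 3.01 to 7.87 in the adipose libraries. Neutrophil markers summed to 1.89 and 2.79 CPM in control and to 15.3, 4.63 and 107 CPM in OA-AP libraries 1, 2 and 3. The part of either cell type in the Kcnj15 level was not tested.

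Both aquaporins are acinar genes. Aqp8, on chromosome 7 at 123462291 to 123468004, encodes a water channel of the acinar apical and mitochondrial membranes. It had 19.8 and 20.1 CPM in control and 2.10, 2.23 and 1.41 CPM in OA-AP, means of 20.0 ± 0.226 (SD, n = 2) and 1.91 ± 0.440 CPM (SD, n = 3). The groups were far apart, with a log2 fold change of -3.38 (SE 0.22). Aqp12, on chromosome 1 at 93006334 to 93012269, encodes an intracellular aquaporin of acinar cells. It was the most abundant of the 10 genes per length, and had 229 and 292 CPM in control and 92.2, 105 and 121 CPM in OA-AP. The groups again did not overlap, with a log2 fold change of -1.30 (SE 0.16). When libraries were scaled by their totals alone, the values were -2.66 for Aqp8 and -0.58 for Aqp12, while the median of all tested genes moved from 0.04 to 0.75.

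The aquaporins differed in how they stood to the acinar markers. For every 1000000 CPM of summed acinar markers, Aqp12 was 366 and 399 in control and 322, 328 and 334 in OA-AP, lower in OA-AP but with a narrower gap than in CPM. Aqp8 was 31.7 and 27.5 in control and 7.32, 7.001 and 3.89 in OA-AP by the same measure, where the gap remained wide. Among the acinar transcription factors, Rbpjl (log2 fold change -2.79, adjusted p = 0.000114 from edgeR) and Bhlha15 (-2.74, adjusted p = 0.00144) fell in the OA-AP pancreas, while Ptf1a (0.09) and Nr5a2 (0.00) did not pass the thresholds. Their part in the aquaporin levels was not tested.

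**Figure D2:**
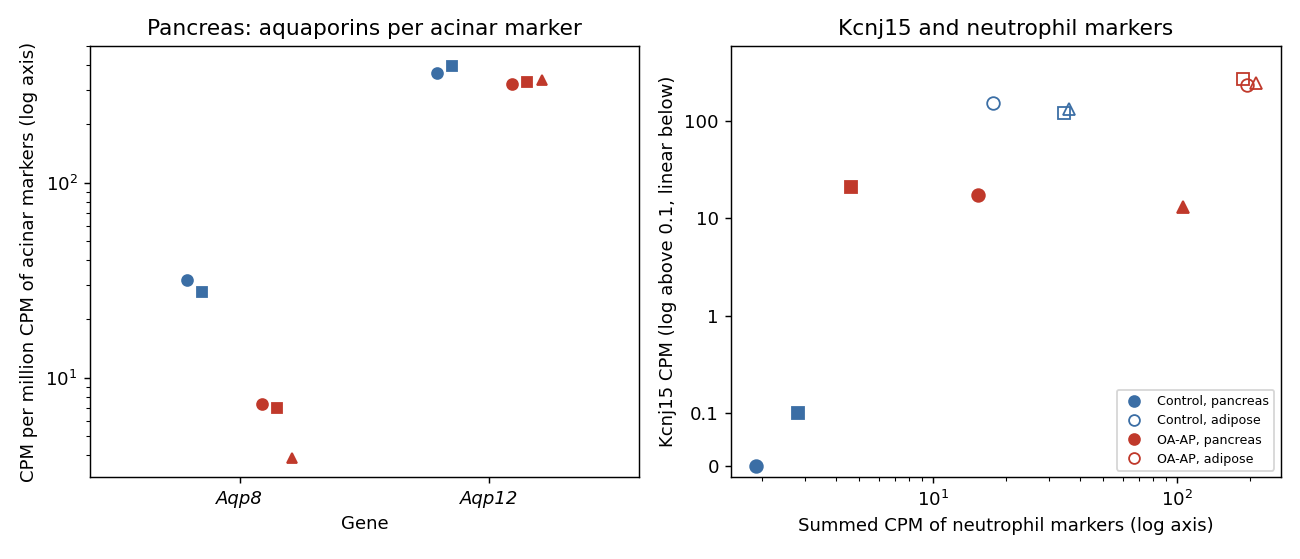
Left, Aqp8 and Aqp12 in each pancreas library per 1000000 CPM of summed acinar markers (log axis; control blue, OA-AP red; circle, square and triangle are replicates 1, 2 and 3), with Aqp8 at 3.89 to 7.32 in OA-AP against 27.5 and 31.7 in control. Right, Kcnj15 CPM against the summed CPM of neutrophil markers in all 11 libraries (filled pancreas, open adipose tissue), where OA-AP library 3 of the pancreas has 107 CPM of neutrophil markers and 13.2 CPM of Kcnj15.

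Car2 encodes cytosolic carbonic anhydrase II, which makes bicarbonate in duct cells. It had 0.858 and 0.199 CPM in the control pancreas and 1.05, 0.801 and 1.46 CPM in OA-AP, with overlapping groups. Its log2 fold change of 1.02 (SE 0.65) did not pass, and was 2.43 without control 1 and 0.37 without control 2. Per kilobase of exon, the control pancreas order was Aqp12 (240 ± 40.9 CPM per kb), Aqp8 (12.6 ± 0.143) and Slc26a6 (1.84 ± 0.419) without overlap between neighbours (SD, n = 2), followed by Car2 (0.218 ± 0.192), whose range overlapped that of Slc4a4. In the OA-AP pancreas Aqp12 led at 97.5 ± 13.5 CPM per kb (SD, n = 3). Slc26a9 at 3.70 ± 0.486 and Kcnj15 at 2.73 ± 0.624 came next and overlapped, and Aqp8 at 1.21 ± 0.278 overlapped Slc26a6 at 0.978 ± 0.461.

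In epididymal adipose tissue, Kcnj15 was the most abundant of the 10 genes per length, and its level was higher in every OA-AP library than in any control. Of the 5 genes with enough counts for the fit (Cftr, Slc26a6, Slc4a4, Kcnj15 and Car2), 1 (Kcnj15) was past the DEG thresholds as higher, where 12.1% of all 15839 tested genes were, and 0 as lower, where 13% were (also 0 at an unadjusted p under 0.05 in edgeR and 0 with DESeq2). Kcnj15 had 153, 124 and 133 CPM in control and 236, 276 and 251 CPM in OA-AP, means of 137 ± 15.2 and 254 ± 20.2 CPM (SD, n = 3 each). All OA-AP libraries lay above all controls, with a log2 fold change of 0.90 (SE 0.12), or 0.75 with library totals alone. At a fold change of at least 2 it did not pass. Per 1000 CPM of adipocyte markers it was 3.67, 3.03 and 3.01 in control and 5.48, 7.87 and 6.54 in OA-AP, again without overlap. Neutrophil markers, of which 6 of 7 tested were higher, summed to 17.7 to 36.3 CPM in control and 188 to 211 CPM in OA-AP, and their part in Kcnj15 was not tested.

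Cftr in adipose tissue had 0.886, 0.551 and 1.26 CPM in control and 0.829, 0.0962 and 0.202 CPM in OA-AP. OA-AP 1 lay within the control range, and the other OA-AP libraries lay below it. The log2 fold change of -1.28 (SE 0.68) did not pass, and without OA-AP library 1 it was -2.57 and passed. Mesothelial markers, of cells that line the fat pad, summed to 413, 252 and 675 CPM in control and 433, 146 and 161 CPM in OA-AP, and their part in the Cftr level was not tested.

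Slc26a3 had 18, 7 and 9 counts in the control adipose libraries and 1, 0 and 0 in OA-AP. The control values were 0.664, 0.297 and 0.306 CPM, and against 3 counts in each OA-AP library the level was at least 2.81-fold lower in OA-AP. The gene did not pass the filter on low counts, and with no filter it passed the thresholds as lower, with a log2 fold change of -4.30. Aqp12 was counted in the adipose library control 2 alone, with 73 counts (3.09 CPM), and was at 0 in the other 5. Aqp8 had 10 counts in that library and 0 or 1 elsewhere. This is the library with acinar markers, and per 1000000 CPM of these Aqp12 stood at 531 and Aqp8 at 72.7 there. Without it, neither gene had more than 1 count in any adipose library.

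Slc4a4 was the second most abundant gene per length in adipose tissue. It had 43.9, 47.5 and 67.2 CPM in control and 50.6, 31.3 and 36.6 CPM in OA-AP, with overlapping groups and a log2 fold change of -0.42 (SE 0.23). Slc26a6 had 7.45, 5.47 and 5.21 CPM in control and 5.39, 6.44 and 5.71 CPM in OA-AP, a log2 fold change of -0.05 (SE 0.19). Car2 had 6.24, 4.32 and 4.46 CPM in control and 5.03, 5.96 and 3.54 CPM in OA-AP, also -0.05 (SE 0.25). Neither gene separated the groups. Slc26a9 and Kcnj16 had 3 counts or fewer in every adipose library, so the high Slc26a9 level was seen in the OA-AP pancreas alone among the 4 groups. The order per kilobase was the same in both adipose groups, Kcnj15 (21.6 ± 2.41 CPM per kb in control and 40.3 ± 3.20 in OA-AP), Slc4a4 (4.89 ± 1.16 and 3.65 ± 0.923), Car2 (2.07 ± 0.441 and 2.00 ± 0.505) and Slc26a6 (1.12 ± 0.227 and 1.08 ± 0.0997), with no overlap between these neighbours (SD, n = 3).

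**Figure D3:**
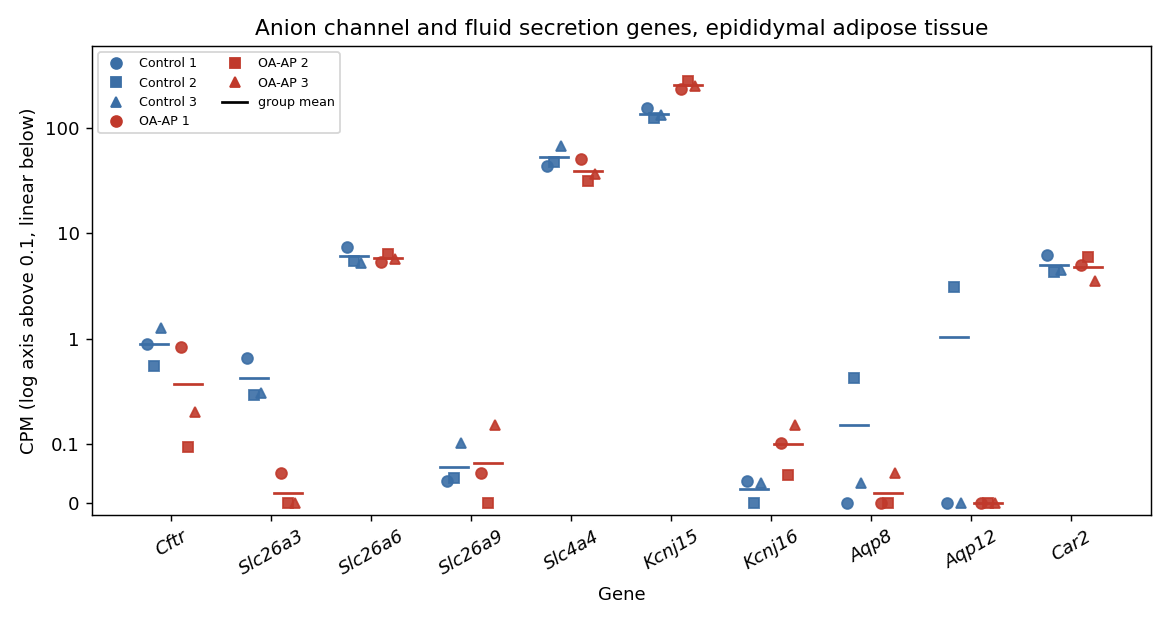
CPM of the 10 genes in each epididymal adipose library (control blue, OA-AP red; symbols mark the replicate, short lines the group mean; log axis above 0.1 CPM). Kcnj15 is at 124 to 153 CPM in control and 236 to 276 CPM in OA-AP, and Aqp12 is above 0 in control 2 only.

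The genes nearest to Slc26a9 and Aqp8 by Pearson's r of log2 CPM over the 11 libraries, among 17045 genes, depended on the scaling between tissues, and the values are a description across libraries of 2 tissues. With TMM factors taken over all 11 libraries together, which were 0.34 to 0.62 in the pancreas and 1.74 to 1.98 in adipose tissue, Slc26a9 was nearest to Retreg3 (r = 0.991), Cnbd2 (0.991) and Nelfb (0.991). An alternative chosen after seeing the data scaled each tissue apart, with 0.5 CPM added before the log. There r was -0.08 for Retreg3, 0.96 for Cnbd2 and -0.40 for Nelfb. The likeness of Retreg3 and Nelfb was thus seen with the joint scaling alone of the 2. Cnbd2 ranked 33 with each tissue scaled apart, where the nearest were 2810471M01Rik (r = 0.9955), Gm18733 (0.9928) and Galntl6 (0.9917). Cnbd2, in CPM of each tissue, had 0.601 and 2.79 in the control pancreas, 34.8, 50.9 and 61.1 in the OA-AP pancreas and 2.49 to 3.98 in adipose tissue. Aqp8 was nearest to Galnt6os (r = 0.993), Afm (0.993) and Pklr (0.992) with the joint scaling, and r was 0.997, 0.990 and 0.989 with each tissue scaled apart. Galnt6os, an antisense RNA for which the strand setting of the counting is not given, had 177 and 209 CPM in the control pancreas and 5.25, 6.52 and 3.09 CPM in the OA-AP pancreas.

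The related transport genes were read from 8 lists of 152 genes that hold none of the 10. In the pancreas 85 were tested, of which 17 were higher (20%) and 10 lower (11.8%), against 16.2% and 13.5% of all tested genes, and the median log2 fold change was 0.09 against 0.04 for all tested genes. Calls, mostly the higher ones, dropped when either control library was left out, which leaves 1 control. Calls among all tested genes dropped then too, but the higher calls of the related genes dropped by a larger part. The larger share of 20% against 16.2% was not seen in those fits. Without OA-AP library 1, 10 related genes were higher, and calls among all tested genes fell from 3834 to 2703. With library totals alone the calls were 47 higher and 5 lower, a setting where 92% of the 6349 calls among all tested genes were higher. In adipose tissue 112 were tested, of which 17 were higher (15.2%) and 30 lower (26.8%), against 12.1% and 13% of all tested genes, with a median of -0.13 against -0.01. The lower calls were 19 without control 1, 15 without control 3 and 20 without OA-AP library 3. Calls among all tested genes in either direction fell from 3981 to 3182, 2865 and 3043 in these fits. In the same libraries 5 of 6 fibroblast markers were lower in OA-AP, with a sum of 3266 to 4142 CPM in control and 1926 to 2381 CPM in OA-AP. Of 8 lymphocyte markers 7 were tested and 5 were lower, with a sum of 10.7, 45.1 and 14.2 CPM in control and at most 4.798 CPM in OA-AP. The part of these cells in the lower calls was not tested.

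Among carbonic anhydrases and bicarbonate transporters, 1 of 5 tested carbonic anhydrases was lower in the OA-AP pancreas. This was Car8, a carbonic anhydrase-related protein without catalytic activity, with 10.6 and 14.1 CPM in control and 0.893, 1.03 and 0.784 CPM in OA-AP (log2 fold change -3.76, SE 0.26, adjusted p = 9.97e-05 from edgeR). In adipose tissue 2 of 10 were higher and 5 lower. Membrane-bound Car4 rose there from 97.2, 102 and 102 CPM to 424, 433 and 521 CPM (log2 fold change 2.20, SE 0.12, adjusted p = 0.000179 from edgeR). Of the bicarbonate, sodium and proton transporters, 1 of 14 was higher and 1 lower in the pancreas, and 2 of 16 were higher and 2 lower in adipose tissue. Slc12a2, the basolateral sodium, potassium and chloride cotransporter that loads secretory cells with chloride, rose in the pancreas (0.63, adjusted p = 0.0109 from edgeR). Of the other SLC26 genes, Slc26a10 fell in both tissues (-1.73, adjusted p = 0.0405 in the pancreas, and -1.80, adjusted p = 0.00777 in adipose tissue), and it was 1 of 3 tested in the pancreas and 1 of 3 lower of 5 tested in adipose tissue.

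Other chloride channels were higher in 6 and lower in 1 of 22 tested in the pancreas, and higher in 5 and lower in 4 of 24 in adipose tissue. Clic4, an intracellular chloride channel family protein, rose in both tissues (2.12, adjusted p = 0.017 in the pancreas; 1.49, adjusted p = 0.00179 in adipose tissue, both from edgeR). Its relative Clic6 fell in both (-2.97, adjusted p = 0.0077, and -3.90, adjusted p = 0.00289). Lrrc8d, a subunit of the volume-regulated anion channel, and Clcn3, an endosomal chloride and proton exchanger, rose in the pancreas (0.91, adjusted p = 0.00447, and 0.89, adjusted p = 0.00459). Of the epithelial potassium channels, 2 of 8 were higher and 1 lower in the pancreas. Kcnq1, a basolateral potassium channel of secretory epithelia, fell there (-0.91, adjusted p = 0.00242), and Kcnma1, the large-conductance calcium-activated channel, rose (1.79, adjusted p = 0.0423). In adipose tissue 1 of 12 was higher and 3 lower, and Kcnma1 fell there (-2.02, adjusted p = 0.0026). Kcnma1 was low in both tissues. Its means in control and OA-AP were 0.935 and 3.24 CPM in the pancreas and 1.64 and 0.398 CPM in adipose tissue.

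Of the other aquaporins, 1 of 2 tested in the pancreas was higher, the water channel Aqp1 (0.62, adjusted p = 0.0411 from edgeR). In adipose tissue 1 of 7 was higher and 3 were lower, and the glycerol channel Aqp7 fell from 153, 172 and 141 CPM to 64.0, 66.6 and 77.7 CPM (-1.16, adjusted p = 0.000867). For the sodium pump, 1 of 9 was higher in the pancreas, Atp1b3 (0.96, adjusted p = 0.0433), and 2 of 13 were higher and 7 lower in adipose tissue. Of the regulators of secretion, 6 of 22 were higher and 5 lower in the pancreas, and 4 of 25 higher and 3 lower in adipose tissue. The receptors for vasoactive intestinal peptide, a stimulus of duct secretion, fell in the pancreas, Vipr1 by 1.73 (adjusted p = 0.00312) and Vipr2 by 1.84 (adjusted p = 0.00235) on the log2 scale. Prkaca, the catalytic subunit of protein kinase A, fell there too (-1.06, adjusted p = 0.00164), while Wnk2, a kinase that regulates cation and chloride cotransport, rose (1.55, adjusted p = 0.000668).

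**Figure D4:**
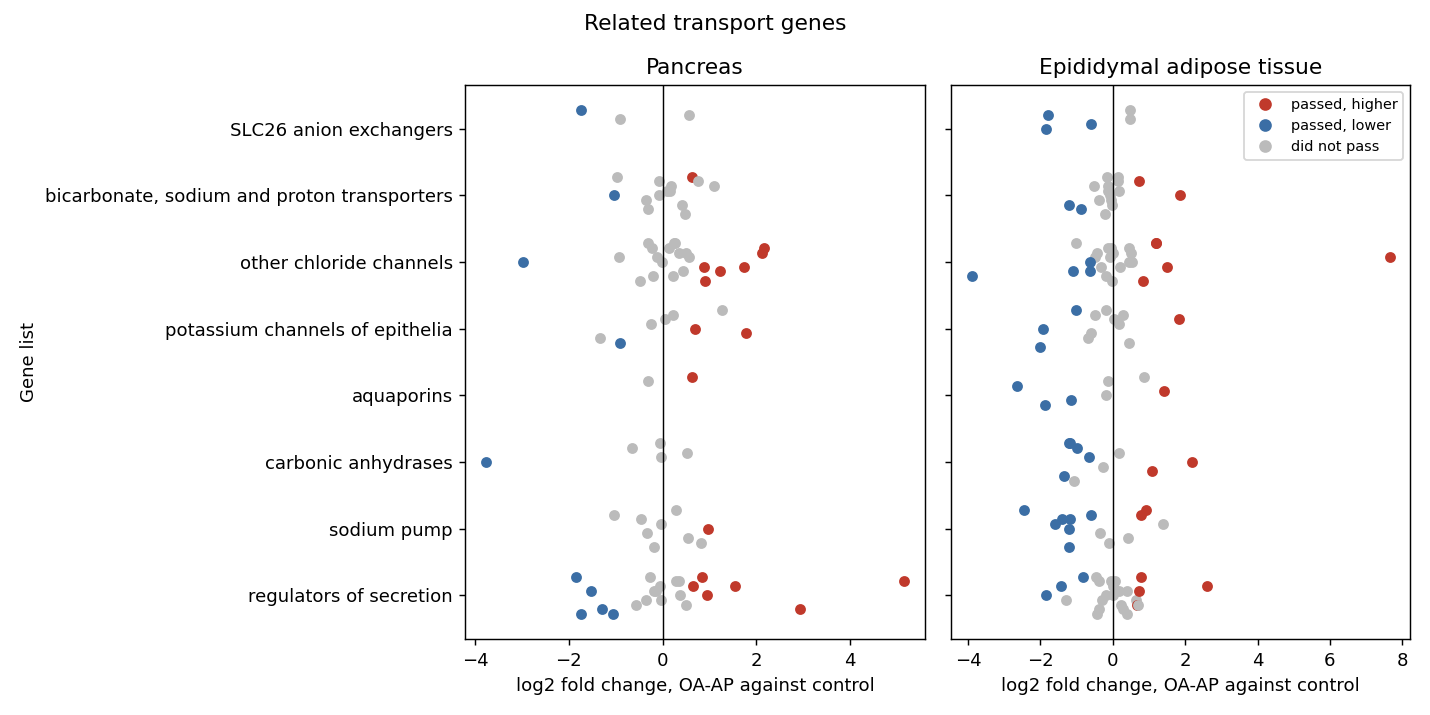
Log2 fold change of each tested related gene in the pancreas (left) and epididymal adipose tissue (right), by list, with red for genes that passed as higher, blue for lower and grey for neither. Of 112 tested in adipose tissue 30 are blue and 17 red, and of 85 in the pancreas 10 are blue and 17 red.

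Whether a change differed between tissues was tested for the related genes with a tissue by condition term. Of 118 tested, 24 passed (20.6% of all tested genes did), 9 with the adipose change above that of the pancreas and 15 below it. Kcnma1, Wnk2 and the adenylyl cyclase Adcy6 passed as higher in the pancreas and lower in adipose tissue, and their difference passed too.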

How the data were processed

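RNA sequencing counts of 11 libraries were used, and the 10 genes and all lists were chosen with earlier results of these data known. The authors trimmed reads with Trim Galore 0.6.6 and fastp 0.20.1, mapped them to GRCm38 with STAR and counted them with featureCounts 2.0.1, and deposited whole-number counts per gene with gene lengths. The annotation release and the strand setting are not given in the sources used here. No per-sample column was left unused.

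Each tissue was fitted apart with edgeR 4.0.16 (filterByExpr, TMM, robust quasi-likelihood test, Benjamini-Hochberg over all tested genes), and differentially expressed genes (DEGs) passed an adjusted p under 0.05 with a change of 1.5-fold or more. A joint fit gave the tissue by condition term. SEs are the log2 fold change divided by the root of F. CPM used TMM-scaled library sizes, and correlations used a prior count of 2 with all libraries scaled together. DESeq2 1.42.0, other scalings, filters and folds, a replicate block and leaving out each library were alternatives. Named related genes were the 4 or fewer per list and tissue with the smallest adjusted p among DEGs with a group mean of at least 1 CPM, and some genes are counted but not reported by name here. Other related genes are named only where a count turns on them. Lower bounds use 3 counts per library, and as reads carried no molecular identifiers they cover counting error only. The labels give each library as a separate sample and do not say more, so p-values measure the spread between these samples.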

Additional observations from a re-analysis of the deposited data

Results flagged for a closer look

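The naming rule gave 38 related genes reported here, and 14 differed in their OA-AP change between the tissues by edgeR's tissue by condition test. Of all tested genes 20.6% did, as did 24 of the 118 related genes tested. The 38 were picked by their change within a tissue of these same libraries. That choice favours such differences, so nothing is read from the count of 14. Values are the log2 fold change in adipose tissue minus that in the pancreas. The adipose change was higher for Car8 (2.68, adjusted p = 0.00569), Vipr1 (1.66, adjusted p = 0.0397), Car4 (1.65, adjusted p = 0.00186), Clcn5 (1.40, adjusted p = 0.00165), Gopc (0.69, adjusted p = 0.0329) and Prkaca (0.59, adjusted p = 0.0373). It was lower for Kcnma1 (-3.82, adjusted p = 0.00204), Wnk2 (-3.40, adjusted p = 0.000195), Fxyd3 (-2.99, adjusted p = 0.00547), Adcy6 (-1.70, adjusted p = 9.43e-05), Lrrc8d (-1.35, adjusted p = 0.00101), Clcn3 (-1.10, adjusted p = 0.0016), Fxyd6 (-1, adjusted p = 0.022) and Slc12a2 (-0.79, adjusted p = 0.0252). Of these, 3 passed in opposite directions in the tissues (Kcnma1, Wnk2 and Adcy6). Wnk2 was at 0.101 to 1.12 CPM in adipose tissue against 27.6 to 98.4 CPM in the pancreas.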

How the results depend on the processing

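Of the 118 counts of calls recomputed under the alternatives, 102 stayed within 1.5 times the reported count, and of the 144 log2 fold changes recomputed for the 10 genes, 18 moved by more than 1 SD between replicates and none turned the sign of a called gene. At a fold change of at least 2, the calls among related genes were 8 higher in the pancreas and 10 higher in adipose tissue, and Kcnj15 in adipose tissue did not pass, which left 0 of the 10 genes there. With library totals alone, 47 related genes were higher and 5 lower in the pancreas, and 51 differed between tissues. In that setting 92% of the 6349 calls among all tested genes in the pancreas were higher. A minimum of 10 counts in every library removes genes near 0 in the controls and left 0 of the 10 genes higher in the pancreas. With no filter, 1 of the 10 genes (Slc26a3) passed as lower in adipose tissue. Leaving out 1 OA-AP library gave 10 to 14 higher and 7 to 11 lower related genes in the pancreas, with 10 higher without OA-AP library 1. Leaving out a pancreas control leaves 1 control, and both counts were then below the reported ones. Leaving out 1 adipose library gave 13 to 19 higher and 15 to 25 lower there, with 15 lower without control 3. It also gave 0 to 1 of the 10 genes lower in adipose tissue (Cftr, without OA-AP library 1).

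With a replicate block that pairs same-numbered pancreas and adipose libraries, 13 related genes differed between tissues in place of 24. Same-numbered control and OA-AP libraries are different animals, and the labels do not tie tissues to one mouse. Correlations of the deviations of same-numbered libraries were -0.163 to 0.056 between control and OA-AP, and -0.009, 0.089 and 0.13 between tissues. Of the 6 OA-AP libraries 4, and of the 6 adipose libraries 0, correlated best with their own number across tissue or condition. With so few libraries per group, some such matches arise without any pairing, so these counts do not decide whether libraries are paired.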
